A study of Homo sapiens with 10 samples.

Results

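The 60 genes described here act in G2 phase and mitosis: the cyclins, kinases and phosphatases of mitotic entry, the transcription factors that drive them, and the proteins of chromosome condensation, centromeres, kinetochores, kinesins, the spindle, anaphase and cytokinesis. They were taken from the table of gene counts by symbol, out of 57353 symbols, by a list of names and not by a measured value, though with earlier results of these data known. All 60 were in the table, passed the filter on low counts and were among the 17230 genes tested. They were divided by role into 10 subgroups.

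RNA was sequenced from 10 samples of LNCaP-C4-2, a castration-resistant human prostate cancer cell line. The knockdown line (KD, 3 samples) carried a lentiviral shRNA against CPT1A, the carnitine palmitoyltransferase that admits long-chain fatty acids to the mitochondrion for oxidation, and its control line (NT, 2 samples) carried a control shRNA, named scrambled in the labels and non-targeting in the study's methods. This arm was selected with 1 µg/ml puromycin. The over-expressing line (OE, 3 samples) carried CPT1A cDNA in a lentivirus, and its control line (EV, 2 samples) carried the empty vector. This arm was selected with 5 µg/ml blasticidin. Every line was thus transduced and drug-selected, NT differs from EV in both vector and drug, and all 4 lines share the C4-2 background. The study describes 1 line of each kind, made with 1 shRNA and 1 cDNA, and mentions no independent transductions. P-values therefore measure how samples of 1 line vary, which may be technical.

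Entry into mitosis is driven by CDK1 bound to cyclins A and B, which the CDC25 phosphatases switch on. Condensins and topoisomerase then compact the chromosomes, kinetochores attach them to a spindle built by kinesins and assembly factors, and the anaphase-promoting complex with CDC20 releases sister chromatids once the checkpoint kinases are satisfied. Most of these genes are transcribed mainly in G2 and M under the MuvB, B-MYB (MYBL2) and FOXM1 complexes. In dividing cultures their RNA is therefore widely used as a sign of proliferation. By the study's account, the OE line grew more slowly than its control. From these RNA data the study reported gene sets of cell division, mitosis and E2F targets as decreased in OE against KD, each relative to its control. It related this decrease to the slower growth. With several added fatty acids, OE colonies grew more than EV colonies in the study, each relative to albumin alone. Growth was not measured in the data used here.

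Library totals ranged from 23555205 to 28615770 counts, and levels are given as TMM-scaled CPM, a share of the library's reads. CPT1A was at 265 and 262 CPM in NT against 81.2, 86.4 and 86.2 CPM in KD, and 326 and 318 CPM in EV against 869.9, 914 and 861 CPM in OE, so every library carried the change its label names. All 10 prostate luminal markers checked, from KRT8 to KLK3, averaged 330 CPM or more in every line, and 9 or 10 of 12 markers of other cell types lay below 1 CPM, with 4 to 7 of them at 0 counts; COL1A1 was the highest, at 9.08 to 15.1 CPM. The luminal markers summed to 6790 to 7057 CPM in NT and 9627 to 10500 in KD, and to 9243 to 9678 in EV and 12820 to 13290 in OE, and the markers of other cell types to 17.3 to 17.8 CPM in NT and 23.5 to 25.4 in KD, and to 15.4 to 16.8 in EV and 19.97 to 21.9 in OE. Both sums were higher in every sample of a manipulated line than in its controls. Their part in the results was not tested. KD 2 stood apart from the other KD libraries: the chi-square per degree of freedom over genes was 6.8 and 7 for its pairs with KD 1 and KD 3, against 2.3 for KD 1 with KD 3. The count of the 60 genes took 0.144% to 0.166% of a library in NT and EV, 0.448% to 0.572% in KD and 0.232% to 0.247% in OE. Bulk RNA cannot tell a larger share of cells in G2 and M from more RNA per such cell.

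The first question was how the mitosis genes differed between the knockdown line and its control. Of the 60 genes, 57 rose in KD against NT and 0 fell at an adjusted p under 0.0001 (edgeR quasi-likelihood test, Benjamini-Hochberg over all tested genes), where 16.4% of all tested genes were called higher and 12.8% lower. All 60 changes were positive and all 60 passed at 0.05 (29.1% of all tested genes were higher at that limit). At an unadjusted p under 0.05 the number lower was 0 as well, and the DESeq2 Wald test and limma-voom also called 0 lower. The median log2 fold change was 1.73, a 3.31-fold rise, against -0.02 over all tested genes, and the changes ran from 0.49 for KIF20B to 2.63 for GTSE1. In 58 of the 60 genes all 3 KD samples lay above both NT samples, a separation seen in 34.9% of all tested genes. KIF20B, CENPE and PRC1 were not called.

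Raising CPT1A was the opposite manipulation, and the second question was whether the genes moved the opposite way. In OE against EV, 34 of the 60 genes rose and 0 fell (edgeR quasi-likelihood test, Benjamini-Hochberg), against 11.6% of all tested genes called higher and 10.3% lower. The median log2 fold change was 0.62, a 1.53-fold difference, against -0.02 over all tested genes. The changes ran from -0.16 for KIF20B to 1.98 for PLK1, with 56 positive and 4 negative. The 4 negative ones, CDK1, TTK, SMC4 and KIF20B, were not called, and at an unadjusted p under 0.05 as well as by the DESeq2 Wald test and limma-voom 0 genes were lower. In 46 genes all 3 OE samples lay above both EV samples (33.3% of all tested genes) and in 14 they overlapped. Each of the 34 genes that rose in OE had also risen in KD, 23 rose in KD only at this limit, and 3 were called in neither arm. At an adjusted p under 0.05, 42 of the 60 were higher in OE and 0 lower. Of the 17230 tested genes, 4411 were higher and 4545 lower at that limit.

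**Figure D1:**
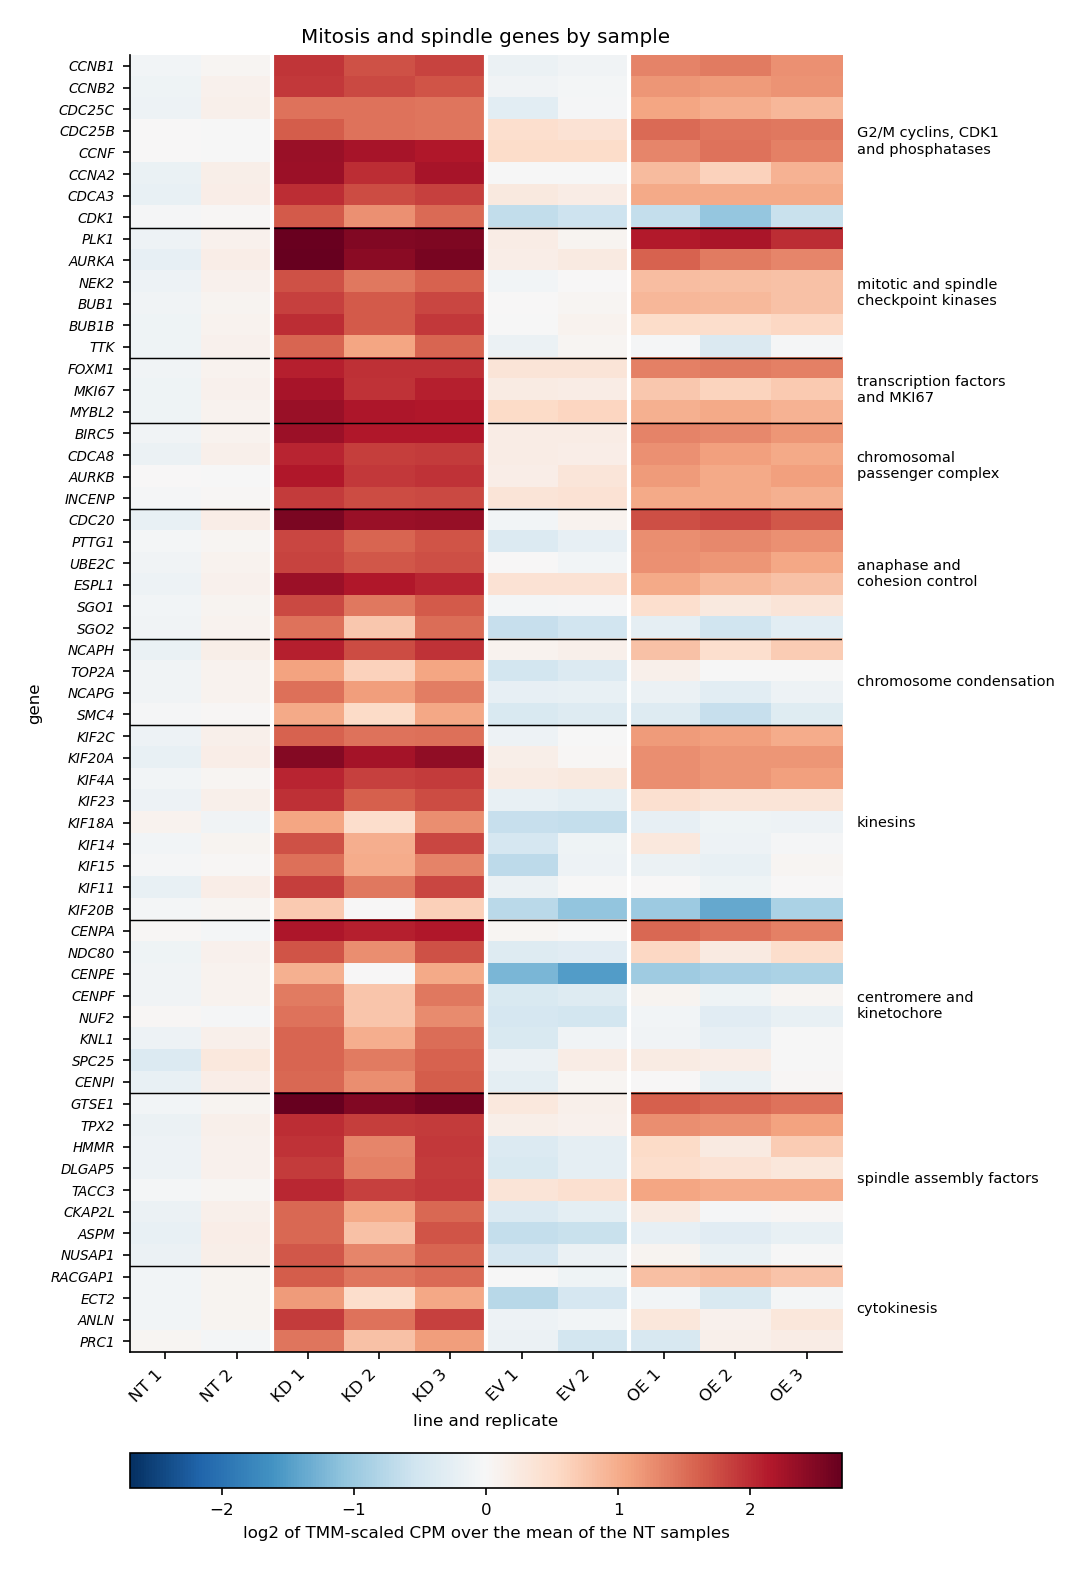
Level of each of the 60 genes (rows, grouped by role and ordered within a subgroup by the OE versus EV change) in each of the 10 samples (columns), as the log2 of TMM-scaled CPM over the mean of the NT samples; red is higher and blue lower. All KD columns are red except for KIF20B and CENPE in KD 2, which lie near 0. The OE columns are red mainly in the cyclins, kinases, passenger and anaphase genes. In OE, CDK1, TTK, SMC4 and KIF20B lie on average below both NT and EV, and 13 further genes lie below NT and above EV.

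The 2 arms were then compared with each other. The interaction, the OE versus EV change minus the KD versus NT change, was negative for all 60 genes and called lower for 38 of them (edgeR quasi-likelihood test, Benjamini-Hochberg), against 8.98% of all tested genes called lower and 6.94% higher. Its median was -1.01, against -0.02 over all tested genes, and it ran from -1.81 for MYBL2 to -0.15 for PTTG1. So for 38 genes the knockdown change exceeded the over-expression change by a margin that passed the test. Of these, 25 had risen in OE and 13 were not called there. The count depended on single libraries: it was 27 without NT 1 and 53 without KD 2.

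In OE against KD, with no control, 58 of the 60 genes were lower in OE (edgeR quasi-likelihood test, Benjamini-Hochberg; 16.4% of all tested genes called lower and 15.5% higher), with a median of -1.16 against -0.02 over all tested genes. In 59 genes all 3 OE samples lay below all 3 KD samples (32.1% of all tested genes). CDC25B was the gene with overlapping samples and the smallest difference, -0.06, and CDK1 the one with the largest, -2.23. This comparison and the interaction share the KD and OE samples with the arms, so they are not further evidence on them.

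The control lines were compared with each other as well. In EV against NT the median of the 60 genes was -0.06, against -0.004 over all tested genes, with 24 positive and 36 negative. At the limit 1 gene was higher, MYBL2 (0.55 ± 0.074 SE, edgeR adjusted p = 3.83e-06), and 1 lower, CENPE (-1.36 ± 0.21 SE, edgeR adjusted p = 2.34e-05), where 5.25% and 2.91% of all tested genes were called (8.16% in either direction). Both EV samples lay above both NT samples in 14 genes and below them in 22 (34.1% and 33.9% of all tested genes). These counts are no larger than, or close to, those shares of all genes. The 14 include the transcription factor genes FOXM1 and MYBL2, MKI67 and all 4 genes of the chromosomal passenger complex. The number called was 0 without NT 1 and 15 without KD 2.

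KD had the highest mean of the 4 lines for all 60 genes. The order from low to high was NT, EV, OE, KD for 24 genes (7.27% of all tested genes), EV, NT, OE, KD for 19 (2.79%), EV, OE, NT, KD for 13 (1.93%) and OE, EV, NT, KD for 4 (5.41%). OE was thus second highest for 43 genes, and for the other 17 it lay below NT. The last order belonged to CDK1, TTK, SMC4 and KIF20B.

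**Figure D2:**
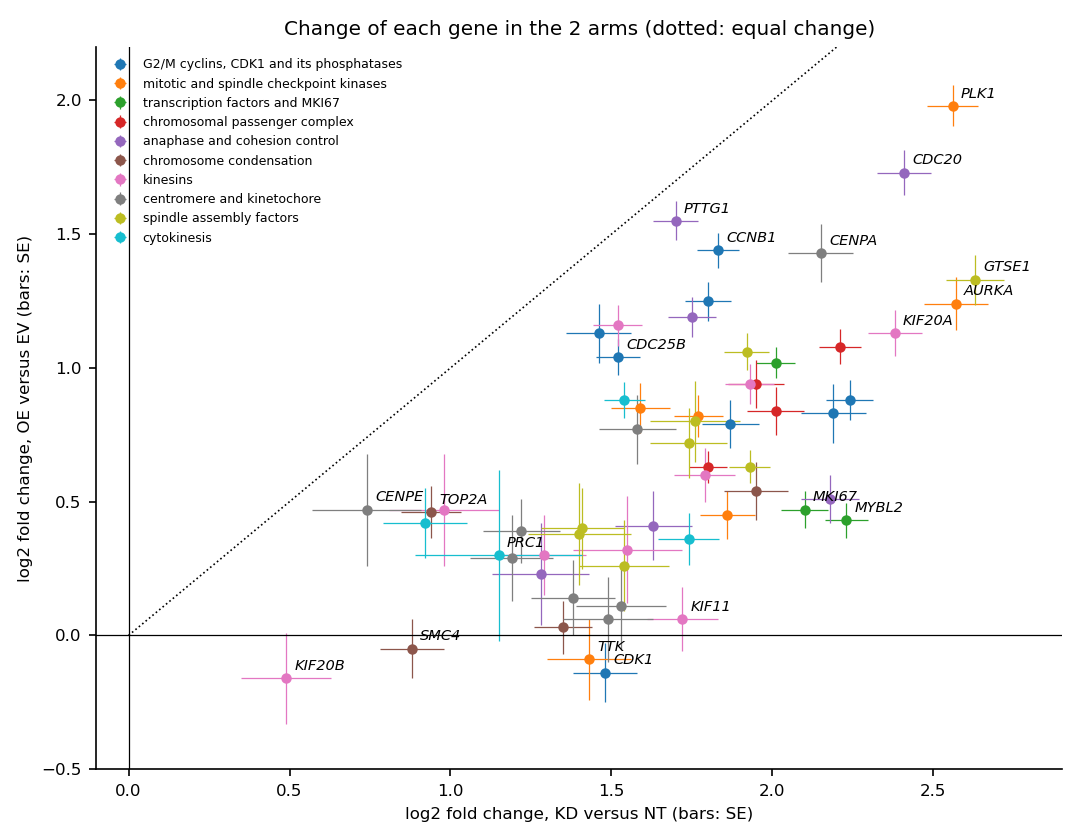
Log2 fold change of each gene in KD versus NT (horizontal) and in OE versus EV (vertical), with the standard errors as bars, coloured by subgroup; the dotted line marks equal change in the 2 arms. All 60 points lie right of 0 and below the dotted line, and 4 lie below 0 on the vertical axis.

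Genes of this program share promoter elements, so the sequence before their start sites was read from RefSeq (GRCh38.p14), which had entries for 52 of the 60 genes. The cell cycle genes homology region (CHR, TTTGAA or TTCGAA), where MuvB complexes bind, was found on either strand between 250 bases before and 50 after the start in 39 of the 52 (75%), against 19.5% of 27305 genes in the same window. TTTGAA alone was in 36 genes (69.2% against 18.2%) and TTCGAA in 5 (9.62% against 1.82%). CCAAT, the box of the NF-Y factor, was in 40 (76.9% against 39.7%), an E2F-like TTTNNCGC in 9 (17.3% against 8.23%), and a CHR together with a CCAAT in 32 (61.5% against 7.85%). A match in this window is a description of letters and not a bound site. The 39 genes with TTTGAA or TTCGAA, the only CHR forms searched, had medians of 1.63 in KD versus NT and 0.47 in OE versus EV. Of these, 37 and 19 were called. The 13 with neither form had medians of 1.83 and 0.83, with 12 and 9 called.

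The 180 bases before the start are shown for 6 genes, chosen after their values were seen. PLK1, CDC20, CCNB2 and CCNB1 rose in both arms, and CDK1 and SMC4 rose in KD and were not called in OE. Their OE changes were -0.14 and -0.05, or 0.28 and 0.34 with an offset for GC content. CDK1 and SMC4 have 2 RefSeq starts each, and the start with the most motif matches is shown. Capitals mark the CHR (TTTGAA or TTCGAA) and the CCAAT box on the strand shown or, reading TTCAAA and ATTGG, on the other. All 6 are given on the plus strand, their coding strand, in GRCh38.p14, at chr16:23678709-23678888 (PLK1), chr1:43358801-43358980 (CDC20), chr15:59104966-59105145 (CCNB2), chr5:69166970-69167149 (CCNB1), chr10:60778298-60778477 (CDK1), chr3:160399470-160399649 (SMC4).
PLK1: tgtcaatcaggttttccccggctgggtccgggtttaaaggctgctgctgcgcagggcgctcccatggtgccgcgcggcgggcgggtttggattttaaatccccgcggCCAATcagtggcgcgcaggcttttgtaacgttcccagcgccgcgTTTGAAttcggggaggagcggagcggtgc
CDC20: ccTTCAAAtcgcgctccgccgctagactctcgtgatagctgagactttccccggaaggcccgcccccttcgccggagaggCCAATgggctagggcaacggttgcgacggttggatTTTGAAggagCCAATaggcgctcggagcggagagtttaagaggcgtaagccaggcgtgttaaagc
CCNB2: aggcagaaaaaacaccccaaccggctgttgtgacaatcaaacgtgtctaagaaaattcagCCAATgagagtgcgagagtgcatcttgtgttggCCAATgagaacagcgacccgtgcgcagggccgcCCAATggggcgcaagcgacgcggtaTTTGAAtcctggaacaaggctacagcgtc
CCNB1: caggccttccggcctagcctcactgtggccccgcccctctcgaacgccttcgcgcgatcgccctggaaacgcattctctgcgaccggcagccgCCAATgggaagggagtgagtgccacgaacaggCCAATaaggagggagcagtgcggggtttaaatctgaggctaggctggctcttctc
CDK1: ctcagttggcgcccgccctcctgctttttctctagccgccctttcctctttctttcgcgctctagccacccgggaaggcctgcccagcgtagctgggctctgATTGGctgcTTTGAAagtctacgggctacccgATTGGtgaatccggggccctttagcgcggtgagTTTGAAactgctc
SMC4: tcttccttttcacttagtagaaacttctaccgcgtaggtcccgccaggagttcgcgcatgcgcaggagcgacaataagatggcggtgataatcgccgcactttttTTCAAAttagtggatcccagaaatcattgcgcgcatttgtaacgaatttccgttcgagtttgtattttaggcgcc

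Elements occur in both kinds of gene. PLK1 and CCNB2 hold TTTGAA starting 29 bases before the start, with CCAAT upstream. CDC20 holds it 65 bases before and again, on the other strand, near the far end shown. The 2 CCAAT of CCNB1 stand with neither TTTGAA nor TTCGAA. CDK1, which was not called in OE, holds TTTGAA 69 and 13 bases before the RefSeq start shown and CCAAT on the other strand. Before its other start, TTTGAA lies 161 bases away. SMC4 holds TTTGAA on the other strand, 75 bases before the start shown, and no CCAAT. The window of its other start holds neither a CHR nor a CCAAT.

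Among the 8 genes of mitotic entry (CDK1, the cyclins, CDC25B, CDC25C and CDCA3), all 8 rose in KD (median 1.81) and 7 in OE (median 0.96); CDK1 was the exception. CCNB1, cyclin B1, the partner that switches CDK1 on at mitotic entry, was at 49.9 and 54.5 CPM in NT against 199, 173 and 184 CPM in KD, and 47 and 49.2 CPM in EV against 132.1, 137 and 122 CPM in OE. All KD and OE samples exceeded both controls, and the order KD over OE held in every sample. CCNB1 rose 3.55-fold in KD (log2 1.83 ± 0.065 SE, edgeR adjusted p = 7.15e-17) and 2.71-fold in OE (log2 1.44 ± 0.066 SE, edgeR adjusted p = 2.13e-14). The difference between arms was -0.39 ± 0.091 (SE, edgeR adjusted p = 0.00112), which did not pass the limit.

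CCNF, cyclin F, a substrate adaptor of an SCF ubiquitin ligase, had the largest KD change of these 8, at 14.1 and 14 CPM in NT against 70.7, 65.5 and 62.7 CPM in KD, and 19.9 and 19.7 CPM in EV against 34.8, 38.9 and 36 CPM in OE. The 2 EV samples already lay above the 2 NT samples, and the change was 2.24 ± 0.074 (SE, edgeR adjusted p = 2.23e-17) in KD and 0.88 ± 0.073 (SE, edgeR adjusted p = 8.24e-10) in OE. CCNA2, CCNB2, CDC25B, CDC25C and CDCA3 rose in both arms as well, by 1.46 to 2.19 in KD and 0.79 to 1.25 in OE. CDC25B, a phosphatase that activates CDK1, overlapped between the 2 manipulated lines, with 62.5 ± 4.47 CPM (SD, n = 3) in KD and 59.98 ± 2.23 in OE.

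CDK1, the kinase that cyclins A and B activate, lies at chr10:60778331-60794852 on the plus strand of GRCh38. It was at 51 and 53.1 CPM in NT against 164, 122 and 150.4 CPM in KD, and 32.6 and 35.6 CPM in EV against 33.1, 25.1 and 34.4 CPM in OE. It rose in KD (1.48 ± 0.10 SE, edgeR adjusted p = 6.02e-12), while the OE samples overlapped the EV samples (-0.14 ± 0.11 SE, edgeR adjusted p = 0.317; 95% interval -0.35 to 0.08). Its interaction was -1.62 ± 0.15 (SE, edgeR adjusted p = 4.02e-09), and both EV samples lay below both NT samples. So CCNB1 and CDK1 both rose in KD, while in OE CCNB1 rose and CDK1 did not pass.

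The 6 mitotic and checkpoint kinases all rose in KD (median 1.82), and 4 rose in OE (median 0.83). PLK1, the polo-like kinase of centrosome maturation and mitotic entry (chr16:23677656-23690367, plus strand), was at 27.9 and 33.2 CPM in NT against 194, 172 and 174 CPM in KD, and 35 and 32.1 CPM in EV against 134.9, 140.3 and 121 CPM in OE. No KD or OE sample came near a control sample: it rose 5.9-fold in KD (log2 2.56 ± 0.078 SE, edgeR adjusted p = 4.54e-18) and 3.93-fold in OE (log2 1.98 ± 0.077 SE, edgeR adjusted p = 8.79e-16), the largest OE change of the 60. AURKA, the kinase of spindle poles, was at 10.8 and 14.2 CPM in NT against 80.1, 67.8 and 73.8 CPM in KD, and 14.1 and 14.7 CPM in EV against 37.9, 33 and 31 CPM in OE. It rose 5.93-fold in KD (log2 2.57 ± 0.10 SE, edgeR adjusted p = 3.02e-16) and 2.36-fold in OE (log2 1.24 ± 0.10 SE, edgeR adjusted p = 8.45e-10).

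The checkpoint kinases split. BUB1 and NEK2 rose in OE (0.82 ± 0.078 SE and 0.85 ± 0.095 SE; edgeR adjusted p = 8.3e-09 and 9.81e-08), and BUB1B, at 0.45 ± 0.09 (SE, edgeR adjusted p = 0.000158), just missed the limit. TTK, the MPS1 kinase that starts the checkpoint signal (chr6:80003887-80042527, plus strand), was at 8.53 and 10.0 CPM in NT against 27.6, 19.5 and 27.4 CPM in KD, and 8.35 and 9.61 CPM in EV against 9.09, 7.06 and 9.09 CPM in OE. Its OE and EV samples overlapped (-0.09 ± 0.15 SE, edgeR adjusted p = 0.663; 95% interval -0.38 to 0.21), although it rose in KD (1.43 ± 0.13 SE, edgeR adjusted p = 2.1e-09). Without EV 2 or without OE 2 the TTK difference in OE was 0.02, so its sign was not fixed by these samples.

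FOXM1 and MYBL2, transcription factors of the G2 and M program, and MKI67, whose protein Ki-67 coats mitotic chromosomes and marks cycling cells, rose in both arms, 3 of 3. FOXM1 was at 42.6 and 48.4 CPM in NT against 196, 177 and 178 CPM in KD, and 57.6 and 58.3 CPM in EV against 117, 120.5 and 116 CPM in OE; it rose by 2.01 ± 0.061 (SE, edgeR adjusted p = 4.54e-18) in KD and 1.02 ± 0.059 (SE, edgeR adjusted p = 1.79e-12) in OE. MKI67, the gene with the highest mean count of the 60, was at 80.3 and 93.5 CPM in NT against 409, 336 and 371 CPM in KD, and 101 and 100.1 CPM in EV against 143, 131.97 and 143 CPM in OE. Its rise was 4.28-fold in KD (log2 2.10 ± 0.072 SE, edgeR adjusted p = 3.66e-17) and 1.38-fold in OE (log2 0.47 ± 0.07 SE, edgeR adjusted p = 4.73e-06).

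MYBL2 showed the widest gap between arms. It was at 31.8 and 37 CPM in NT against 174, 157 and 155 CPM in KD, and 49 and 51.4 CPM in EV against 66.7, 69.8 and 66.1 CPM in OE, so the samples of the 4 lines did not overlap. It rose by 2.23 ± 0.067 (SE, edgeR adjusted p = 4.54e-18) in KD and by 0.43 ± 0.065 (SE, edgeR adjusted p = 6.17e-06) in OE, and its interaction of -1.81 ± 0.092 (SE, edgeR adjusted p = 1.26e-13) was the most negative of the 60. With scaling by library size alone, the OE change of MYBL2 was 0.33, that of MKI67 0.37 and that of ESPL1 (separase) 0.42, and none of these passed the limit.

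The chromosomal passenger complex, which corrects attachments at centromeres and then directs cytokinesis, rose as a whole. Its 4 genes are AURKB (the kinase), BIRC5 (survivin), CDCA8 (borealin) and INCENP (the scaffold). They were called higher in KD (median 1.98) and in OE (median 0.89). All 4 had EV samples above NT samples, a separation seen in 34.1% of all tested genes. BIRC5 was at 30.1 and 34.2 CPM in NT against 158, 143 and 143 CPM in KD, and 36.9 and 37.1 CPM in EV against 81.3, 79 and 73.6 CPM in OE. Its samples separated the 2 controls from OE and OE from KD, with 2.21 ± 0.066 (SE, edgeR adjusted p = 4.54e-18) in KD and 1.08 ± 0.066 (SE, edgeR adjusted p = 5.11e-12) in OE. The other 3 lay between 1.80 and 2.01 in KD and between 0.63 and 0.94 in OE.

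**Figure D3:**
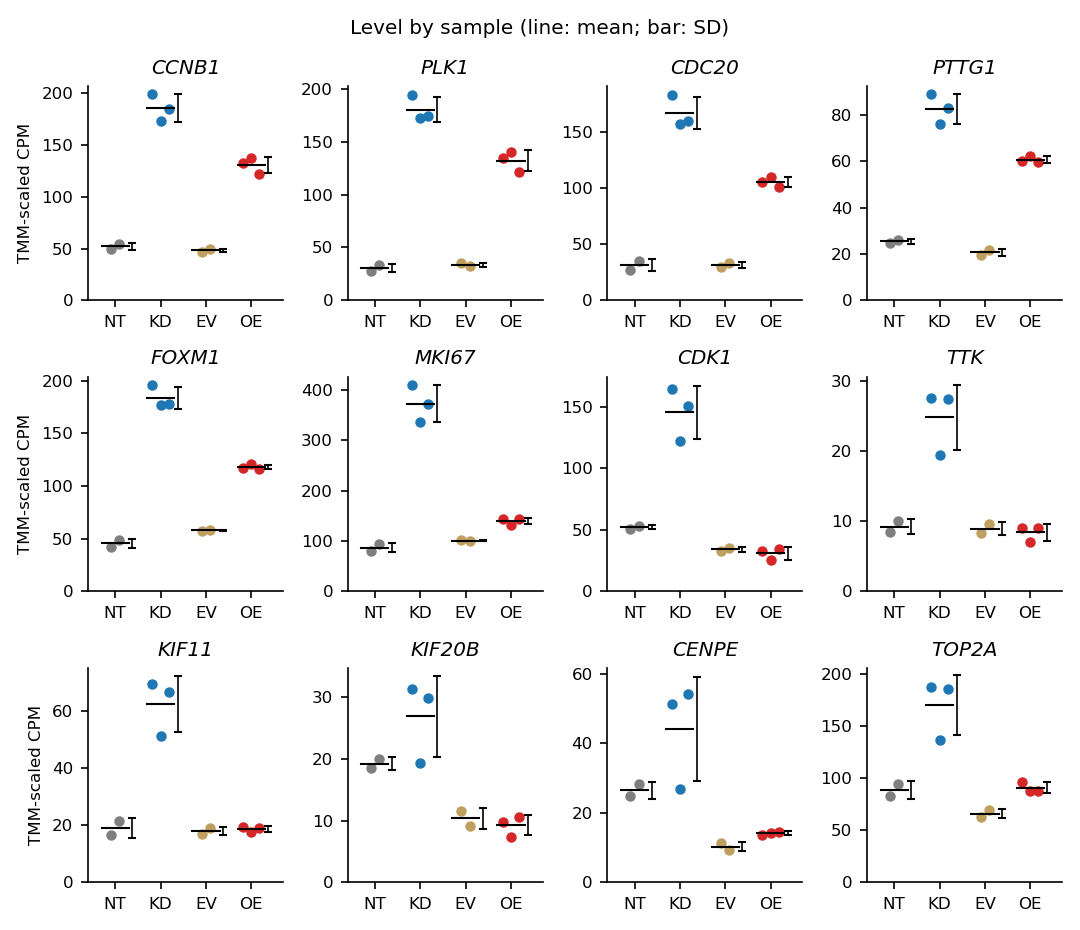
TMM-scaled CPM of 12 of the 60 genes in each sample (points) of the 4 lines, with the mean (line) and SD (bar) of each line (n = 2 for NT and EV, n = 3 for KD and OE). In the upper row and for FOXM1 the OE points lie between the controls and KD, while for CDK1, TTK, KIF11 and KIF20B they overlap the EV points.

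Of the 6 genes of anaphase and sister cohesion, 6 rose in KD (median 1.72) and 4 in OE (median 0.85). CDC20, the activator of the anaphase-promoting complex (chr1:43358981-43363203, plus strand), was at 27.4 and 35.2 CPM in NT against 183, 157 and 159.7 CPM in KD, and 29.8 and 33.6 CPM in EV against 105, 109.8 and 101 CPM in OE. The controls overlapped, and CDC20 rose 5.32-fold in KD (log2 2.41 ± 0.084 SE, edgeR adjusted p = 4.65e-17) and 3.32-fold in OE (log2 1.73 ± 0.084 SE, edgeR adjusted p = 6.47e-14). PTTG1, securin, the inhibitor of separase, is shown for its interaction value, which was seen first, and was at 24.7 and 26.2 CPM in NT against 88.8, 76.1 and 83 CPM in KD, and 19.7 and 21.9 CPM in EV against 60.3, 62.3 and 59.6 CPM in OE. It had the most equal change in the 2 arms: 1.70 ± 0.07 SE in KD and 1.55 ± 0.073 SE in OE, with an interaction of -0.15 ± 0.10 (SE, edgeR adjusted p = 0.234) and a 95% interval of -0.35 to 0.05.

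UBE2C, the ubiquitin-conjugating enzyme of the same complex, also rose in both arms (1.75 ± 0.074 SE and 1.19 ± 0.076 SE; edgeR adjusted p = 1.38e-15 and 1.11e-11). ESPL1, separase, the protease that cuts cohesin, rose more in KD (2.18 ± 0.09 SE) than in OE (0.51 ± 0.091 SE; edgeR adjusted p = 4.57e-05), with an interaction of -1.66 ± 0.13 (SE, edgeR adjusted p = 2.28e-10). The shugoshins, which protect centromeric cohesin, rose in KD and did not pass in OE, at 0.41 ± 0.13 (SE, edgeR adjusted p = 0.0124) for SGO1 and 0.23 ± 0.19 (SE, edgeR adjusted p = 0.31) for SGO2.

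Chromosome condensation was the subgroup with 0 of 4 genes called in OE (median 0.25; 2 of 4 passed at an unadjusted p under 0.05 in edgeR, the DESeq2 Wald test called 1 and limma-voom 0, and with an offset for GC content 2 were called with a median of 0.48), though 4 of 4 rose in KD (median 1.14). SMC4, a core ATPase of both condensins (chr3:160399274-160434954, plus strand), was at 99.7 and 103 CPM in NT against 206, 145 and 208 CPM in KD, and 76.4 and 79.7 CPM in EV against 79.4, 65.8 and 81.2 CPM in OE. Its OE and EV samples overlapped, below NT; the change was 0.88 ± 0.10 (SE, edgeR adjusted p = 7.44e-08) in KD and -0.05 ± 0.11 (SE, edgeR adjusted p = 0.743) in OE (95% interval -0.25 to 0.16). TOP2A, the topoisomerase that untangles sister chromatids, stood at 0.94 ± 0.093 (SE, edgeR adjusted p = 5.91e-09) in KD and 0.46 ± 0.097 (SE, edgeR adjusted p = 0.00032) in OE. NCAPH, the kleisin of condensin I, was at 11.6 and 14.6 CPM in NT against 56, 44.7 and 50.7 CPM in KD, and 13.9 and 14.4 CPM in EV against 22.6, 17.9 and 21 CPM in OE. All OE samples lay above EV, yet the change of 0.54 ± 0.11 (SE, edgeR adjusted p = 0.000239) missed the limit, and NCAPG was at 0.03 ± 0.10 (SE, edgeR adjusted p = 0.812).

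Of the 9 kinesins, 8 rose in KD (median 1.55) and 4 in OE (median 0.47, or 0.83 with an offset for GC content). The 4 were KIF20A (MKLP2) and KIF23 (MKLP1), motors of the central spindle, KIF4A, a chromosome-arm motor, and KIF2C (MCAK), which depolymerises microtubules at centromeres. KIF20A was at 18.8 and 24.6 CPM in NT against 121, 104 and 114 CPM in KD, and 24.1 and 22.1 CPM in EV against 52, 49.6 and 49.9 CPM in OE, with the largest KD change of the kinesins (2.38 ± 0.084 SE, edgeR adjusted p = 5.67e-17) and 1.13 ± 0.085 (SE, edgeR adjusted p = 1.98e-10) in OE. KIF2C was at 23.8 and 28.8 CPM in NT against 79.5, 72.3 and 73.3 CPM in KD, and 23.9 and 26 CPM in EV against 58.7, 56.9 and 52.4 CPM in OE. Its OE samples lay between the EV and the KD samples: 1.52 ± 0.076 (SE, edgeR adjusted p = 2.58e-14) in KD, 1.16 ± 0.077 (SE, edgeR adjusted p = 2.15e-11) in OE, and -0.35 ± 0.11 (SE, edgeR adjusted p = 0.0102) between the arms.

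KIF11, KIF14, KIF15, KIF18A and KIF20B were not called in OE. KIF11 (Eg5), which pushes spindle poles apart, is shown by sample after its values were seen and was at 16.6 and 21.5 CPM in NT against 69.5, 51.3 and 66.7 CPM in KD, and 17 and 19 CPM in EV against 19.3, 17.7 and 19.2 CPM in OE. It rose in KD (1.72 ± 0.11 SE, edgeR adjusted p = 1.99e-12), while OE and EV overlapped (0.06 ± 0.12 SE, edgeR adjusted p = 0.7; 95% interval -0.17 to 0.29). KIF20B (MPP1), a motor of cytokinesis (chr10:89701590-89774939, plus strand), was at 18.4 and 19.98 CPM in NT against 31.3, 19.4 and 29.9 CPM in KD, and 11.6 and 9.17 CPM in EV against 9.77, 7.42 and 10.6 CPM in OE. Its KD samples overlapped NT, through KD 2. The differences were 0.49 ± 0.14 (SE, edgeR adjusted p = 0.00499) in KD, -0.16 ± 0.17 (SE, edgeR adjusted p = 0.474) in OE and -0.89 ± 0.17 (SE, edgeR adjusted p = 0.000299) between EV and NT; without KD 2 the first was 0.67 and passed (edgeR adjusted p = 1.05e-07).

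Of the 8 centromere and kinetochore genes, 7 rose in KD (median 1.44) and 2 in OE (median 0.34), CENPA and NDC80. With an offset for GC content 4 rose in OE (median 0.63). CENPA, the histone H3 variant that marks centromeres, was at 5.06 and 4.77 CPM in NT against 22.3, 20.9 and 22.1 CPM in KD, and 5.11 and 4.91 CPM in EV against 14.3, 13.5 and 12.7 CPM in OE, with overlapping controls and every manipulated sample above them. It rose 4.43-fold in KD (log2 2.15 ± 0.10 SE, edgeR adjusted p = 7.48e-15) and 2.69-fold in OE (log2 1.43 ± 0.11 SE, edgeR adjusted p = 1.29e-10). NDC80, which holds the microtubule end, changed by 0.77 ± 0.13 (SE, edgeR adjusted p = 2.12e-05) in OE, but its partners in the same complex, NUF2 and SPC25, by 0.29 ± 0.16 (SE, edgeR adjusted p = 0.12) and 0.11 ± 0.16 (SE, edgeR adjusted p = 0.601). All 3 rose in KD, by 1.19 to 1.58.

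CENPF, a large protein of the outer kinetochore, was at 82.8 and 93.4 CPM in NT against 232, 148 and 235 CPM in KD, and 66.5 and 69 CPM in EV against 92.8, 81.5 and 91.5 CPM in OE. KD 2 lay well below KD 1 and KD 3, and the change was 1.22 ± 0.12 (SE, edgeR adjusted p = 5e-09) in KD and 0.39 ± 0.12 (SE, edgeR adjusted p = 0.0108) in OE. CENPE, the kinesin that carries chromosomes to the spindle equator (chr4:103105349-103198445, minus strand), was at 24.8 and 28.2 CPM in NT against 51.3, 26.8 and 54.2 CPM in KD, and 11.2 and 9.29 CPM in EV against 13.7, 14.3 and 14.6 CPM in OE. KD 2 fell within the NT range and both EV samples lay far below NT, with 0.74 ± 0.17 (SE, edgeR adjusted p = 0.000512) in KD and 0.47 ± 0.21 (SE, edgeR adjusted p = 0.0678) in OE. Without KD 2 both passed the limit, at 1.00 (edgeR adjusted p = 1.35e-14) and 0.47 (edgeR adjusted p = 5.08e-05). KNL1, the checkpoint scaffold, and CENPI, of the inner kinetochore, rose in KD (1.38 ± 0.13 SE and 1.49 ± 0.14 SE) and were at 0.14 ± 0.14 (SE, edgeR adjusted p = 0.427) and 0.06 ± 0.16 (SE, edgeR adjusted p = 0.783) in OE.

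The 8 spindle assembly factors rose in KD, 8 of 8 (median 1.75), and 5 rose in OE (median 0.67): TPX2, GTSE1, TACC3, HMMR and DLGAP5. TPX2, the activator of AURKA on the spindle, was at 46.1 and 56.3 CPM in NT against 205, 187 and 189 CPM in KD, and 56.9 and 55.1 CPM in EV against 123, 118 and 109 CPM in OE, and rose by 1.92 ± 0.07 (SE, edgeR adjusted p = 9.76e-17) in KD and 1.06 ± 0.069 (SE, edgeR adjusted p = 1.65e-11) in OE. GTSE1, a microtubule protein of G2 and S phase, was at 10.2 and 11.4 CPM in NT against 74.5, 61.1 and 64.5 CPM in KD, and 13.1 and 11.9 CPM in EV against 33.1, 31.8 and 29.6 CPM in OE. It had the largest KD change of all 60 genes, 6.19-fold (log2 2.63 ± 0.091 SE, edgeR adjusted p = 4.65e-17), and 1.33 ± 0.093 (SE, edgeR adjusted p = 5.26e-11) in OE. ASPM, of the spindle pole, and CKAP2L were at 0.38 ± 0.19 (SE, edgeR adjusted p = 0.0935) and 0.40 ± 0.15 (SE, edgeR adjusted p = 0.0272) in OE.

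In cytokinesis, 3 of 4 genes rose in KD (median 1.35) and RACGAP1 rose in OE (median of the 4, 0.39). With an offset for GC content 3 of the 4 rose in OE (median 0.74). RACGAP1, the GAP of centralspindlin, was at 40.3 and 44.5 CPM in NT against 132.5, 116 and 122 CPM in KD, and 42.2 and 39.2 CPM in EV against 74.8, 78.1 and 72.2 CPM in OE, a rise of 1.54 ± 0.064 (SE, edgeR adjusted p = 1e-15) in KD and 0.88 ± 0.066 (SE, edgeR adjusted p = 1.49e-10) in OE. Its partner ECT2, the exchange factor that activates RhoA at the cleavage furrow, was at 65.5 and 73 CPM in NT against 153, 96.7 and 142 CPM in KD, and 41.4 and 50.7 CPM in EV against 66, 52.1 and 66.5 CPM in OE. Its EV samples lay below NT, and it rose in KD (0.92 ± 0.13 SE, edgeR adjusted p = 1.11e-06) but stood at 0.42 ± 0.13 (SE, edgeR adjusted p = 0.0107) in OE. ANLN, anillin, the scaffold of the contractile ring, was at 36.6 and 41 CPM in NT against 144, 107 and 138.7 CPM in KD, and 35.1 and 36.9 CPM in EV against 48.2, 42 and 48.2 CPM in OE, with 1.74 ± 0.094 (SE, edgeR adjusted p = 1.01e-13) in KD and 0.36 ± 0.097 (SE, edgeR adjusted p = 0.00319) in OE.

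PRC1, which bundles the antiparallel microtubules of the midzone, gave no call. It was at 0.943 and 0.874 CPM in NT against 2.49, 1.58 and 1.99 CPM in KD, and 0.819 and 0.649 CPM in EV against 0.678, 0.996 and 1.04 CPM in OE, so near the lowest levels that 16 to 65 reads stood behind each value, with 1.15 ± 0.26 (SE, edgeR adjusted p = 0.000635) in KD and 0.30 ± 0.32 (SE, edgeR adjusted p = 0.467) in OE. Of its exon bases (chr15:90966040-90995629, minus strand), 88.4% lie in other annotated genes, 38.8% on the opposite strand. NUSAP1 is overlapped over 97.8% of its exon bases, NCAPG over 35.6%, SMC4 over 32.3% and FOXM1 over 22%. None of the overlap of NUSAP1, and all of that of NCAPG, SMC4 and FOXM1, is with genes on the opposite strand. The strandedness of the counting is not given in the sources used here, so reads in the shared bases may not belong to the gene named. Per kilobase of the canonical transcript PRC1 was the lowest of the 60, with 0.393 CPM on average over all samples, and PTTG1 the highest, with 73.1, followed by CDC20, CCNB1 and UBE2C with 57.1, 56.6 and 55.

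**Figure D4:**
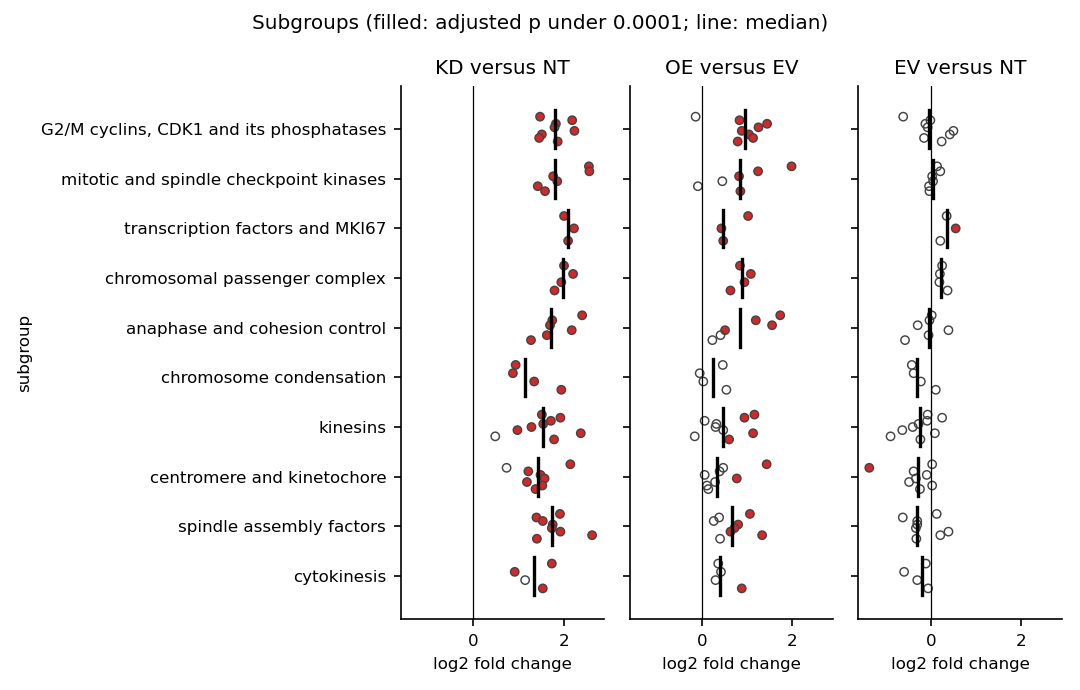
Log2 fold change of every gene (points) in the 10 subgroups for KD versus NT, OE versus EV and EV versus NT. Filled points passed an adjusted p of 0.0001 and the bar is the median of the subgroup. In KD versus NT all points lie above 0; in OE versus EV the medians run from 0.25 for condensation to 0.96 for the mitotic entry genes.

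In KD 1, KD 2 and the NT samples most of the genes deviated from the mean of the line in the same direction. KD 1 was above the KD mean in 60 of 60 genes and KD 2 in 1 of 60, where 51.6% and 53.5% of all tested genes were above it. NT 2 was above the NT mean in 53 of 60 and NT 1 in 7, which mirror each other in a line of 2 samples. The other samples were more mixed, with 37 in KD 3, 47, 23 and 27 in OE 1, OE 2 and OE 3, and 19 and 41 in EV 1 and EV 2. Relative to the NT mean, the median of the 60 genes was 1.90, 1.56 and 1.80 on the log2 scale in KD 1, KD 2 and KD 3, -0.04 and 0.02 in EV, and 0.66, 0.52 and 0.63 in OE, against 0.12 and -0.12 in NT 2 and NT 1. So the lines did not overlap on this scale except for the 2 controls. The median coefficient of variation of the 60 genes was 9.92% between the NT samples and 3.77% between the EV samples, against 10.7% for KD and 5.84% for OE.

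Other genes of the division machinery were read from fixed lists. Of all tested genes, for comparison with each count, 16.4% were higher and 12.8% lower in KD, and 11.6% and 10.3% in OE. Of 30 further kinetochore and checkpoint genes tested, 21 rose and 1 fell in KD (median 1.05), while 6 rose and 3 fell in OE (median 0.04). HJURP, the chaperone that loads CENPA, rose by 2.14 ± 0.077 (SE, edgeR adjusted p = 7.18e-17) in KD and 0.73 ± 0.079 (SE, edgeR adjusted p = 5.28e-08) in OE. BUB3, which brings BUB1 to kinetochores, rose in KD (0.29 ± 0.049 SE, edgeR adjusted p = 1.49e-05) and fell in OE (-0.47 ± 0.05 SE, edgeR adjusted p = 4.5e-08). In condensin and cohesin, 9 of 16 rose and 1 fell in KD (median 0.54), and 3 rose and 6 fell in OE (median -0.35). NCAPD2, of condensin I, rose in both (1.42 ± 0.059 SE and 0.78 ± 0.058 SE; edgeR adjusted p = 9.29e-16 and 1.45e-10), and SMC3, of cohesin, fell in OE (-0.97 ± 0.11 SE, edgeR adjusted p = 6.2e-08).

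Of 18 subunits and regulators of the anaphase-promoting complex, 7 rose and 3 fell in KD (median 0.29), and 3 rose and 2 fell in OE (median 0.07), where the shares of all tested genes, 11.6% higher and 10.3% lower, are near the OE counts. UBE2S, the chain-extending enzyme, had means of 77.9 CPM in NT against 217 CPM in KD, and 92.1 CPM in EV against 227 CPM in OE, and rose in both arms (1.48 ± 0.072 SE and 1.30 ± 0.071 SE; edgeR adjusted p = 1.63e-14 and 6.71e-13). Of 19 centrosome and augmin genes, 9 rose in KD (median 0.43), and 0 rose and 1 fell in OE (median -0.13; at an unadjusted p under 0.05 in edgeR, 4 higher and 8 lower; 0 and 1 called also by the DESeq2 Wald test and limma-voom). Among 8 inhibitors of mitotic entry, 3 rose in KD and 4 in OE (medians 0.70 and 0.36), PKMYT1, the membrane kinase that inhibits CDK1, in both (1.62 ± 0.079 SE and 0.71 ± 0.077 SE; edgeR adjusted p = 1.6e-14 and 5.18e-08). Of 11 DREAM and MuvB genes, 2 rose and 1 fell in KD (median 0.20), near the 16.4% and 12.8% of all tested genes, and 0 were called in OE (median 0.04; at an unadjusted p under 0.05 in edgeR, 2 higher and 3 lower; 0 called also by the DESeq2 Wald test and limma-voom).

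DNA replication genes, the S-phase side of the cycle, gave the nearest comparison. Of 33, 32 rose in KD (median 1.17), close to the share of the mitosis genes. In OE 2 rose and 5 fell, near the 11.6% and 10.3% of all tested genes, with a median of -0.16, where 34 of 60 mitosis genes rose with a median of 0.62. CDT1, the licensing factor, rose in OE (0.71 ± 0.074 SE, edgeR adjusted p = 3.09e-08), while MCM3, of the replicative helicase, fell (-0.35 ± 0.051 SE, edgeR adjusted p = 3.83e-06) after rising in KD (1.39 ± 0.052 SE, edgeR adjusted p = 1.46e-16). RRM2, of ribonucleotide reductase, rose by 1.85 ± 0.067 (SE, edgeR adjusted p = 1e-16) in KD and was at 0.06 ± 0.067 (SE, edgeR adjusted p = 0.483) in OE. Relative to NT, the median of the replication genes was 1.27, 1.19 and 1.16 in the KD samples, 0.19 and 0.22 in EV and 0.09, 0.02 and 0.13 in OE, so the OE samples lay below the EV samples. These counts and medians describe the 2 lists, and no test of the difference between them was made.

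The size of a change went with the base composition of the transcript. Over the 60 genes the rank correlation of GC content with the log2 fold change was 0.73 for the knockdown arm, 0.65 for the over-expression arm and 0.85 in EV versus NT, and over the 13992 tested genes with a value it was 0.22, 0.45 and 0.37. Genes share libraries and are not independent. Of the 20 genes with the lowest GC (34.3% to 39.6%), 18 were called in KD and 3 in OE (medians 1.39 and 0.35). Of the middle 20 (39.8% to 46.6%), 20 and 12 were called (medians 1.76 and 0.82), and of the highest 20 (46.8% to 60%), 19 and 19 (medians 2.06 and 0.98). All tested genes in those GC ranges had OE versus EV medians of -0.36, -0.17 and 0.11.

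With an offset for GC content in each sample, chosen after the data were seen, 59 genes were called higher in KD and 41 in OE. All 60 changes in OE were positive. The rank correlation with GC was then 0.22 in OE versus EV, but still 0.47 in KD versus NT and 0.65 in EV versus NT. CDK1, TTK, SMC4 and KIF20B then stood at 0.28, 0.30, 0.34 and 0.28 in OE versus EV, with edgeR adjusted p = 0.00333, 0.0348, 0.000191 and 0.0897. The genes that then passed the limit in OE were BUB1B, SGO1, TOP2A, NCAPH, CENPE, CENPF, CKAP2L, ANLN and ECT2, at 0.61 for NCAPH to 0.89 for CENPE, with edgeR adjusted p = 2.18e-05 for NCAPH, 2.81e-08 for ANLN, 4.66e-08 for ECT2 and 7.72e-05 for CENPE, while MYBL2 and ESPL1 no longer did, at 0.22 and 0.34 (edgeR adjusted p = 0.00352 and 0.00165). The split of the genes in OE into those that rose and those that did not therefore rests in part on how GC content is handled, while the absence of genes called lower does not.

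**Figure D5:**
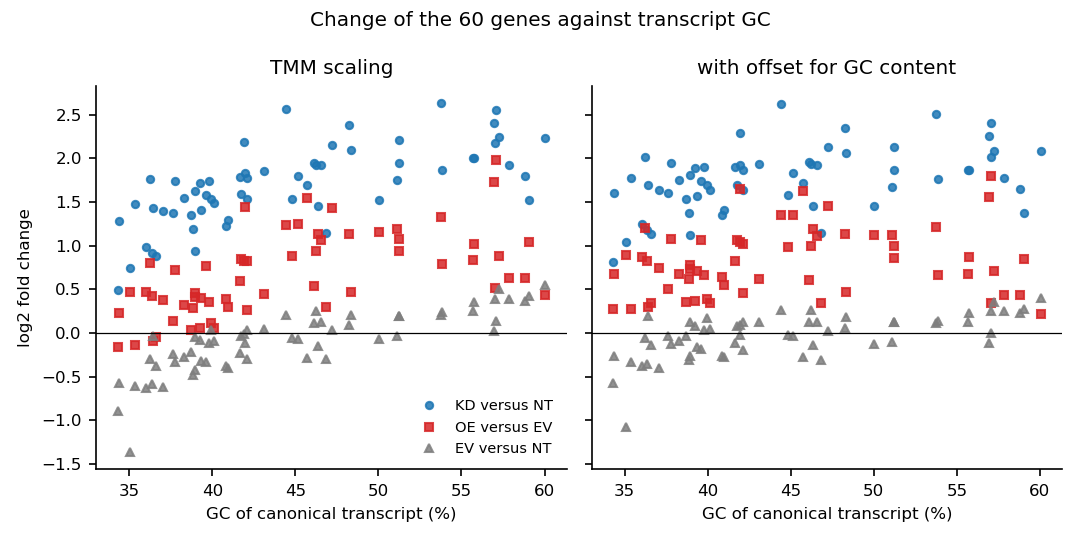
Log2 fold change of the 60 genes against the GC content of their canonical transcript, with TMM scaling (left) and with an offset for GC content (right), for KD versus NT (circles), OE versus EV (squares) and EV versus NT (triangles). Change rises with GC on the left in all 3; with the offset the OE squares all lie above 0.

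Position was looked at for chromosomes 6 and 10, picked with earlier results of these data known. Of the 60, TTK lies on chromosome 6 and CDK1, KIF11, KIF20B and MKI67 on chromosome 10, and 3 of the 4 genes with a negative OE change are among these 5. Their median in OE versus EV was -0.09 with 1 called, and that of the other 55 was 0.72 with 33 called. CDK1, TTK, KIF11 and KIF20B are also among the 20 genes with the lowest GC, of which 3 were called in OE. MKI67, the gene called, has 48.35% GC. The part of GC content in this contrast was not tested. The tested genes within 5 Mb had medians of -0.51 around MKI67 (34 genes), -0.33 around TTK (26), -0.11 around KIF20B (44), -0.05 around CDK1 (20) and -0.04 around KIF11 (62). Medians of that size were also found elsewhere, with -0.47 around ECT2, -0.40 around KIF18A, -0.31 around DLGAP5 and -0.29 around SMC4. In KD versus NT the 5 genes had a median of 1.48, with 4 called. The part of these neighbourhoods in the OE values was not tested.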

How the data were processed

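RNA of 10 samples of LNCaP-C4-2 lines was measured as poly(A) mRNA in paired-end mode. The authors trimmed reads with BBDuk, aligned them to hg38 with STAR 2.6.0a and deposited raw read counts per gene symbol; strandedness and the handling of reads with several positions are not given in the sources used here. From these counts, edgeR 4.0.16 (R 4.3.3) was run on all 10 samples with filterByExpr, TMM scaling, 1 mean per line and the quasi-likelihood F test, with Benjamini-Hochberg adjustment over 17230 genes and calls at an adjusted p under 0.0001. SE and 95% intervals are on the log2 scale and two-sided tests were used. The SE was derived from the log2 change and its F statistic, and the intervals use the normal distribution. They are therefore somewhat narrower than the F test implies. In a library, 3 counts (the floor) equal 0.0995 to 0.136 CPM, and intervals cover the spread between samples only.

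The members and lists were chosen with earlier results of these data known. Values by sample are given, in each subgroup, for the gene with the highest mean level, the largest KD change and the largest absolute OE change, and for each gene not called in KD or negative in OE. Other lists (replication, kinetochore, condensin and cohesin, anaphase-promoting complex, centrosome, inhibitors, DREAM) name up to 4 genes by smallest p. Coordinates, GC content and overlaps are from GENCODE v44 (GRCh38); promoters are from RefSeq. GC values existed for 13992 of the 17230 genes (81.2%) and all 60 members. Alternatives were DESeq2 size factors and Wald test (1.42.0), limma-voom (3.58.1), library size, other filters and limits, each arm alone, a replicate block, leaving out samples and a GC offset. On simulated data for OE versus EV (16866 genes), 100 genes were changed by 1 and 98 by 2 on the log2 scale. Of these, 69% and 88.8% were recovered, with 0 in the wrong direction. The measured comparison held many more calls, 2004 upward and 1774 downward. Adjusted p-values depend on how many genes change, so these rates describe the simulated setting only. They give no recovery rate for the measured genes.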

Additional observations from a re-analysis of the deposited data

How the results depend on the processing

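The counts of genes called in KD versus NT and OE versus EV stayed within 1.5 times under every alternative that could be run, apart from OE versus EV with a log2 change of at least 1 required, which left 16, and OE versus KD then left 35. Leaving out single samples gave 55 to 59 for KD versus NT, 27 to 41 for OE versus EV, 27 to 53 for the interaction, 0 to 15 for EV versus NT and 57 to 59 for OE versus KD, with medians of 1.63 to 1.84, 0.59 to 0.64, -1.15 to -0.92, -0.18 to 0.06 and -1.28 to -1.10. The lowest OE versus EV count came without EV 1 or without EV 2 and the highest without KD 2. EV versus NT called 1 with library size, 15 with no filter, 6 by the DESeq2 Wald test, 1 by limma-voom, 8 with the replicate block, 22 at 0.05 and 1 with a log2 change of at least 1.

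With the GC offset, with or without the block, the OE versus EV median was 0.77 and the OE versus KD median -1.01. With library size only, the median of all genes shifted by -0.10 in OE versus EV, to -0.12 (1220 called higher and 2168 lower), and by -0.13, to -0.15, in the interaction (693 and 2127) and OE versus KD (1663 and 3705); the members' counts were 27, 39 and 58 and their interaction and OE versus KD medians -1.15 and -1.29. The replicate block gave 57, 34, 46 and 58 calls for KD versus NT, OE versus EV, the interaction and OE versus KD. Same-numbered samples deviated from their line means with a mean correlation of -0.003 over 13 pairs (different numbers 0.002 over 24), so no pairing by number was seen. The deviations mirror each other in lines of 2 samples, so this cannot exclude a pairing.

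Of the values of single genes under all alternatives, 1183 in KD versus NT kept their sign and side of the limit, 9 newly passed it and 8 lost it; in OE versus EV these were 1093, 44 and 44, and in the interaction 1012, 57 and 71. Among these 3 comparisons, signs turned only in OE versus EV, 19 times, for genes that were not called. With the GC offset, and with it and the block, CDK1 stood at 0.28 and 0.27, TTK at 0.30 and 0.27, SMC4 at 0.34 and 0.30 and KIF20B at 0.28 and 0.22. Leaving out single samples gave TTK -0.17 to 0.02, SMC4 -0.10 to 0.04, KIF20B -0.31 to 0.04, KIF11 -0.01 to 0.15, CENPI -0.07 to 0.22 and SPC25 -0.05 to 0.30. NCAPG was -0.06, KIF11 -0.04 and CENPI -0.04 with library size, and CENPI -0.01 with the block. The cause was not tested. At the depth of these libraries 16 to 65 reads stood behind each PRC1 value.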
